A study of Mus musculus with 6 samples.

Results

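Liver sinusoidal endothelial cells line the blood channels of the liver lobule, and 10 genes that mark or define them were followed here in bulk liver RNA of 6 mice. They were taken by symbol from a table of 20140 genes: the endocytic receptor genes Stab1, Stab2, Lyve1 and Mrc1, the marker genes Clec4g and Oit3, the ligand genes Bmp2, Wnt2 and Rspo3, and the transcription factor gene Gata4. All 10 were listed and all 10 passed the filter on low counts that left 16370 genes for testing. The livers came from BALB/c mice aged 6 to 10 weeks when obtained, and all were collected on day 21. The sham group (labelled control, 2 livers) was given PBS and no tumor cells. The premetastatic niche (PMN) group (labelled intra-C, 2 livers) carried CT26 cells implanted in the cecum, and the metastasis group (labelled intra-S, 2 livers) received CT26 cells into the spleen. CT26 is a mouse colon carcinoma cell line. The labels do not spell out intra-C and intra-S, which were read here from the description of both tumor models in the paper. Tumor site, route and tumor load changed together with the group and cannot be told apart.

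Sinusoidal endothelial cells differ from other endothelium in having open pores, no continuous basement membrane and a very high capacity to clear macromolecules from blood. The stabilins, encoded by Stab1 and Stab2, and the mannose receptor, encoded by Mrc1, carry out much of this clearance, and hyaluronan is a main cargo. The same cells also send signals to hepatocytes. BMP2 from endothelium drives hepcidin production, and WNT2 and R-spondin 3 near the central vein maintain the pericentral program of hepatocytes. GATA4 is needed for sinusoidal endothelium to acquire its identity. Loss of these genes with a gain of CD34 and basement membrane is known as capillarization.

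The library totals lay between 32838321 and 43368309 counts, and 3 counts, the most that a count of 0 allows, corresponded to 0.0679 to 0.0928 CPM (counts scaled to 1e6 of the TMM-adjusted library total), a limit for counting error only. The livers were checked against marker genes: Alb, the albumin gene of hepatocytes, was at 84369 CPM or more in every liver. Levels within a gene are given in CPM. Fold changes, their standard errors (SE) and adjusted p-values came from edgeR's quasi-likelihood test in 1 fit over all 6 livers, and a gene was called at a Benjamini-Hochberg adjusted p under 0.05. With 2 livers per group the p-values measure the spread between these livers, taken as 1 estimate per gene for all 3 groups. The metastasis livers were less alike than the others. Of 9283 genes at a mean of 5 CPM or more, 3.95% differed over 4-fold between them, against 0.323% between the sham livers and 0.582% between the PMN livers. The metastasis livers stood apart from each other for Stab1, Stab2, Lyve1, Clec4g, Oit3 and Wnt2, so the fold changes of these genes are also given without one of them. Such a fit leaves 1 metastasis liver and holds no measure of the spread of that group.

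Most of the 10 genes were higher in both tumor-bearing groups than in the sham livers, and none was called lower. In the PMN livers, 2 of the 10 genes, Mrc1 and Stab1, were called higher, against 4.92% of all tested genes. No gene of the 10 was called lower, where 2.38% of all tested genes were. In the metastasis livers, Mrc1, Lyve1 and Stab2 were called higher, against 6.78% of all genes (3.95% were called lower). The median log2 fold change over the 10 genes was 1.28 for PMN and 0.96 for metastasis, and over all tested genes it was 0.01 and 0.04. In 8 of the 10 genes both PMN livers lay above both sham livers, which held for 34.4% of all genes. The same was so for 7 of the 10 genes in the metastasis livers and for 30.4% of all genes. Gata4 and Rspo3 were in neither set, and Rspo3 was lower without overlap in the metastasis livers, as were 30% of all genes. No member was lower without overlap in the PMN livers, where 34% of all genes were. At an unadjusted p under 0.05, 7 of the 10 genes were higher in each group, against 15.2% and 17.2% of all genes, and 0 were lower, against 11.8% and 13%. In bulk tissue, more cells of a type and more RNA per cell cannot be told apart. Both comparisons used the same sham livers.

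**Figure D1:**
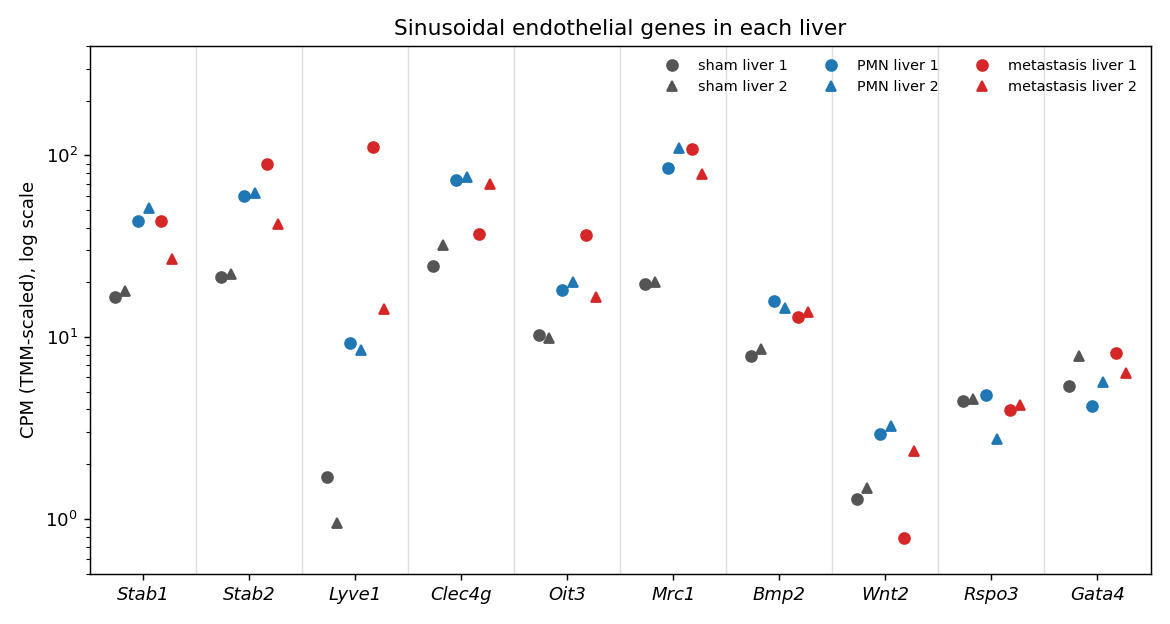
CPM on a log axis for each of the 10 genes, with 1 point per liver (circle, liver 1; triangle, liver 2) in sham, PMN and metastasis livers. For Stab1, Stab2, Lyve1, Clec4g, Oit3, Mrc1 and Bmp2 all 4 tumor-bearing livers lie above both sham livers, and Lyve1 of metastasis liver 1 is at 112 CPM.

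Promoter sequences are shown for the 5 genes that the RefSeq promoter table of GRCm38.p6 holds (Stab1, Stab2, Clec4g, Mrc1 and Wnt2), because the first 4 of them were higher together in all tumor-bearing livers. Each runs from 250 bases before to 50 bases after a transcription start, 5′ to 3′ on the strand of the gene. Capitals mark matches on either strand to the ETS core AGGAAG, bound by endothelial factors such as ERG, and to the GATA words AGATAA (or its variant AGATAG) and TGATAA (or its variant TGATAG), bound by factors such as GATA4.
Stab1, chr14:31168592-31168891, minus strand: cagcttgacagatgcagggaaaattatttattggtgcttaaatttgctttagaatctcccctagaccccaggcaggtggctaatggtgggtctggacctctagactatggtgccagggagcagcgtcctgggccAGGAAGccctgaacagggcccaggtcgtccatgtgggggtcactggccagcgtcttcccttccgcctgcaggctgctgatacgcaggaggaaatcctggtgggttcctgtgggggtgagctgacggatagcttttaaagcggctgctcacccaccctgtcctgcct
Stab2, chr10:87007893-87008192, minus strand: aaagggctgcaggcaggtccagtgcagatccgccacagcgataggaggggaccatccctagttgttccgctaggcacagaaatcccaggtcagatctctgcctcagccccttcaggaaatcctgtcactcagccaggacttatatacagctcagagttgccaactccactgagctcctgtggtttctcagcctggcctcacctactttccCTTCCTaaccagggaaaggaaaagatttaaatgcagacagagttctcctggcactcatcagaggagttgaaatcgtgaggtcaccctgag
Clec4g, chr8:3720602-3720901, minus strand: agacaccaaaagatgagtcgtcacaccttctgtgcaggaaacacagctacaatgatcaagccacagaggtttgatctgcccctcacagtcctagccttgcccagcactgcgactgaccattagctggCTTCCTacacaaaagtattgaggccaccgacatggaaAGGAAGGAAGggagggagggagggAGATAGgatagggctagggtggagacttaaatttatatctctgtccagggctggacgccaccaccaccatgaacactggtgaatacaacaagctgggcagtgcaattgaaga
Mrc1, chr2:14229164-14229463, plus strand: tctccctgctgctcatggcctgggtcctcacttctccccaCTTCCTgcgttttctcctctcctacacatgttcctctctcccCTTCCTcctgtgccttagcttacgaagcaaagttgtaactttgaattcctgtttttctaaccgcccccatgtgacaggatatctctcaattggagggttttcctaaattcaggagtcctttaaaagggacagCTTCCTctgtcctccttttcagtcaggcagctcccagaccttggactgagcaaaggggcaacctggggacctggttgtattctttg
Wnt2, chr6:18030396-18030695, minus strand: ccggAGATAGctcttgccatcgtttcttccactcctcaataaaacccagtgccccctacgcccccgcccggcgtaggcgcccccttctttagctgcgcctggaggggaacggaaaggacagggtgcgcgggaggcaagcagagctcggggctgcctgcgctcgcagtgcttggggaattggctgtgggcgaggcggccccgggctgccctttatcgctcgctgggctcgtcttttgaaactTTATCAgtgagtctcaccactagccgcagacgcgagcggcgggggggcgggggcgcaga

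The ETS core was found in 4 of the 5 promoters and in 35.4% of 32851 promoters of the same length. Clec4g and Mrc1 held 3 matches each, of which 2 in Clec4g overlap one another, at 86 and 82 bases before the start. Stab1 held 1 match and Stab2 held 1, at 116 and 40 bases before the start. The GATA words were found in 2 of the 5, Clec4g at 62 bases before the start and Wnt2 at 246 and 9 bases before it, and in 29.8% of all promoters. The STAT word TTCNNNGAA, on either strand, was in 0 of the 5 and in 8.3% of all promoters. No GATA match overlapped an ETS match. These are matches of letters and not measured binding.

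The members called in either group were all endocytic receptor genes, though only Mrc1 was called in both. Mrc1, on chromosome 2 of GRCm38.p6 from 14229414 to 14332023, encodes the mannose receptor (CD206), which takes up glycoproteins and collagen fragments. Its level was 19.56 and 19.99 CPM in sham, 85.1 and 109.9 in PMN and 108.2 and 79.0 in metastasis livers. The 3 groups of values left a wide gap between sham and tumor-bearing livers, whereas the PMN and metastasis livers overlapped. Mrc1 rose 4.93-fold in the PMN livers (log2 fold change 2.30, SE 0.25, adjusted p = 0.00873, edgeR) and 4.73-fold in the metastasis livers (2.24, SE 0.25, adjusted p = 0.00762, edgeR). The level was 97.5 ± 17.5 CPM in PMN and 93.6 ± 20.6 CPM in metastasis livers (SD, n = 2 each), and the edgeR comparison of metastasis with PMN livers gave a log2 difference of -0.06 (SE 0.24, adjusted p = 0.926). Kupffer cells and other macrophages also express Mrc1. Of 12 Kupffer cell genes, 11 were called higher in the PMN and 10 in the metastasis livers. The summed level of this list was 245.4 to 252.8 CPM in sham, 1179 to 1412 CPM in PMN and 803 to 1401 CPM in metastasis livers, and the defining marker Clec4f was present at 76.8 CPM in each sham liver. The part of macrophages in the Mrc1 result was not tested.

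Stab1 (chromosome 14, 31139017 to 31168651) encodes stabilin-1, a scavenger receptor that some macrophages also carry. It was measured at 16.6 and 18.02 CPM in sham, 43.4 and 51.6 in PMN and 43.3 and 26.8 in metastasis livers. All 4 tumor-bearing livers were above the sham livers, in metastasis livers liver 2 the lowest of them. Stab1 rose 2.74-fold in the PMN livers (log2 fold change 1.45, SE 0.27, adjusted p = 0.0324, edgeR). In the metastasis livers the fold was 2.02 (log2 1.02, SE 0.27), which was not called in edgeR (adjusted p = 0.0611). The latter was log2 0.64 without metastasis liver 1 and 1.32 without metastasis liver 2. The call in the PMN livers was lost in 5 of 16 alternatives. Among these was log2(TPM + 1), where limma gave an adjusted p of 0.0529.

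Stab2 (chromosome 10, 86841194 to 87008038) encodes stabilin-2, the main hyaluronan clearance receptor of the sinusoid, which is more restricted to endothelium. It was measured at 21.5 and 22.4 CPM in sham, 59.7 and 61.9 in PMN and 89.4 and 42.1 in metastasis livers. The PMN livers were nearly equal and lay between both metastasis livers. Stab2 rose 3.00-fold in the metastasis livers (log2 fold change 1.58, SE 0.35, adjusted p = 0.0403, edgeR). The difference in the PMN livers was of like size, 2.77-fold (1.47, SE 0.35), and was not called in edgeR (adjusted p = 0.0578). Without metastasis liver 1, edgeR gave log2 fold changes of 0.95 in the remaining metastasis liver and 1.48 in the PMN livers. Over 16 alternatives the adjusted p of Stab2 in the metastasis livers was 0.000245 to 0.248.

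Lyve1 (chromosome 7, 110850607 to 110862953) encodes a hyaluronan receptor of sinusoidal and lymphatic endothelium. It was measured at 1.70 and 0.951 CPM in sham, 9.32 and 8.48 in PMN and 111.8 and 14.2 in metastasis livers. This was the widest range of the 10 genes, with a 118-fold span over the 6 livers, and the metastasis livers differed 7.87-fold from each other. Lyve1 rose 47.5-fold in the metastasis livers (log2 fold change 5.57, SE 1.01, adjusted p = 0.0242, edgeR). Without metastasis liver 1 the log2 fold change was 3.43, and without metastasis liver 2 it was 6.40. In the PMN livers the fold was 6.72 (log2 2.75, SE 0.91), which was not called in edgeR (adjusted p = 0.117) although the livers did not overlap. This SE uses the spread shared by all groups, so the metastasis livers enter it. The livers of a group differed 1.79-fold in sham and 1.10-fold in PMN. Of the 9283 genes at 5 CPM or more, 138 had a ratio between the metastasis livers at least as large as Lyve1. Of the lymphatic genes, Pdpn was at 1.31 and 1.28 CPM in metastasis livers 1 and 2, Mmrn1 at 0.962 and 1.30 CPM, and Prox1, which hepatocytes also express, at 80.8 and 45.3 CPM. The part of lymphatic endothelium in the Lyve1 result was not tested. Of the 3 tested lymphatic genes, only Mmrn1, an endothelial multimerin, was called higher in either group, and it had no counts in the sham livers. Kupffer cell genes summed to less in metastasis liver 1 (803 CPM) than in metastasis liver 2 (1401 CPM). Monocyte and macrophage genes also summed to less (249 and 433 CPM), whereas neutrophil genes summed to more (1110 and 439 CPM). The part of these cells in the Lyve1 result was not tested.

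Of both marker genes of the sinusoid, neither was called in either group, although all 4 tumor-bearing livers lay above the sham livers. Clec4g (chromosome 8, 3707066 to 3720695) encodes LSECtin, a C-type lectin of sinusoidal endothelium. It was measured at 24.7 and 32.1 CPM in sham, 73.0 and 75.7 in PMN and 36.9 and 70.0 in metastasis livers. Metastasis liver 1, which had the highest Lyve1 and Stab2, had the lowest Clec4g of the tumor-bearing livers. The fold was 2.62 in the PMN livers (log2 1.39, SE 0.33, adjusted p = 0.0577, edgeR) and 1.88 in the metastasis livers (log2 0.91, SE 0.33, adjusted p = 0.124, edgeR). For Clec4g with metastasis, edgeR gave log2 1.30 without metastasis liver 1 and 0.38 without metastasis liver 2. Oit3 (chromosome 10, 59422960 to 59441779) encodes a secreted zona pellucida domain protein. It was measured at 10.2 and 9.91 CPM in sham, 18.2 and 19.98 in PMN and 36.3 and 16.7 in metastasis livers. As for Stab2, metastasis liver 1 was the highest. The folds of Oit3, 1.90 in the PMN livers (log2 0.92, SE 0.36) and 2.63 in the metastasis livers (log2 1.39, SE 0.36), were not called in edgeR (adjusted p = 0.164 and 0.059). With metastasis, Oit3 was at log2 0.73 without metastasis liver 1 and 1.85 without metastasis liver 2.

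**Figure D2:**
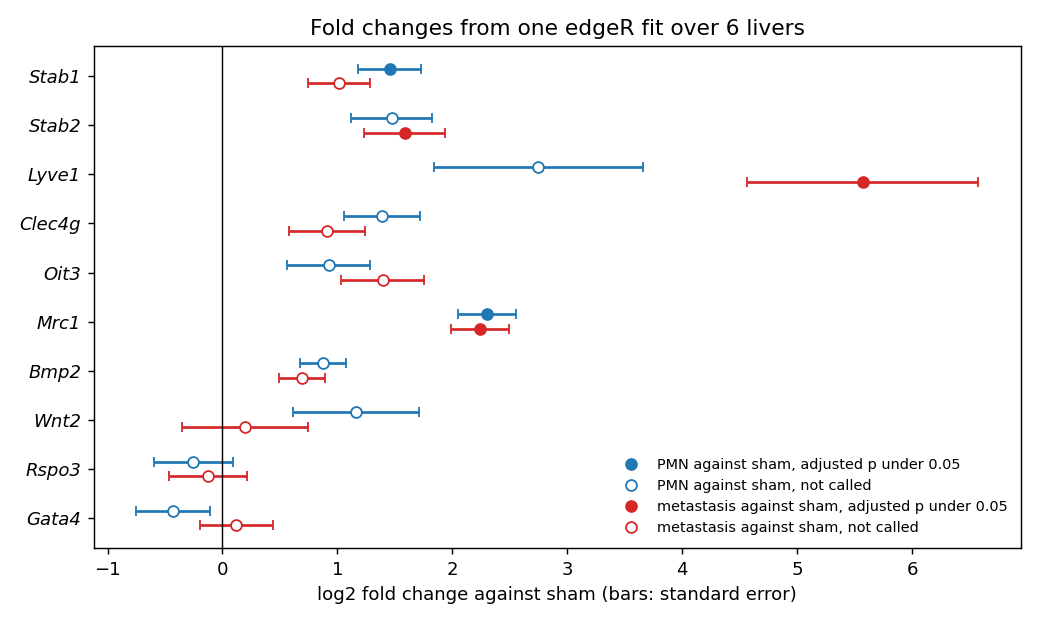
Log2 fold change of each gene against sham with its standard error, from the edgeR fit over 6 livers, for PMN (blue) and metastasis (red). Filled points have an adjusted p under 0.05: Mrc1 and Stab1 in PMN livers, and Mrc1, Lyve1 and Stab2 in metastasis livers.

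The ligands did not move as one. Bmp2 (chromosome 2, 133552159 to 133562896) was measured at 7.83 and 8.60 CPM in sham, 15.8 and 14.4 in PMN and 12.8 and 13.7 in metastasis livers. It was the most even of the 10 genes, with livers of 1 group differing 1.07-fold to 1.10-fold. Its folds of 1.83 in the PMN livers (log2 0.87, SE 0.20) and 1.62 in the metastasis livers (log2 0.69, SE 0.20) were not called in edgeR (adjusted p = 0.0533 and 0.0779). Wnt2 (chromosome 6, 17985474 to 18032772) was measured at 1.28 and 1.47 CPM in sham, 2.93 and 3.25 in PMN and 0.787 and 2.36 in metastasis livers. The metastasis livers therefore lay on either side of the sham livers, with 27 and 96 counts. The log2 fold change was 1.16 in the PMN livers (SE 0.55, adjusted p = 0.231, edgeR) and 0.20 in the metastasis livers (SE 0.55, adjusted p = 0.841, edgeR), and the latter became -0.80 without metastasis liver 2. Rspo3 (chromosome 10, 29453106 to 29535867), which stellate cells also express, was measured at 4.43 and 4.57 CPM in sham, 4.79 and 2.75 in PMN and 3.995 and 4.24 in metastasis livers. Its log2 fold changes of -0.25 and -0.13 (SE 0.34 each) were not called in edgeR (adjusted p = 0.678 and 0.833).

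Gata4 (chromosome 14, 63198914 to 63271712), the only transcription factor among the 10 and also expressed by stellate cells, was measured at 5.37 and 7.92 CPM in sham, 4.18 and 5.69 in PMN and 8.14 and 6.33 in metastasis livers. The sham livers alone differed 1.48-fold and overlapped with both other groups. The log2 fold change was -0.43 in the PMN livers (SE 0.32, adjusted p = 0.435, edgeR) and 0.12 in the metastasis livers (SE 0.32, adjusted p = 0.832, edgeR), and the latter was -0.16 by library size without TMM. Stellate cell and fibroblast genes, which share cells with Rspo3 and Gata4, were called in 0 of 14 cases in the PMN livers, where an unadjusted p under 0.05 marked 0 higher and 2 lower genes. With metastasis, Rgs5, Dcn, Col1a1 and Col1a2 were called higher. There an unadjusted p under 0.05 marked 5 higher and 2 lower genes, against 17.2% and 13% of all genes. The summed level of this list was 426 to 458 CPM in sham, 449 to 455 CPM in PMN and 624 to 686 CPM in metastasis livers, and its part in the values of Rspo3 and Gata4 was not tested.

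Between metastasis and PMN livers, edgeR called none of the 10 genes and 0% of all genes in either direction. At an unadjusted p under 0.05, 1 of the 10 genes was higher, Lyve1 (log2 difference 2.82, SE 0.87, adjusted p = 0.308), against 6.99% of all genes, and 0 were lower, against 6.41%. Here DESeq2 called 1 of the 10 higher, against 240 higher and 287 lower of all 16370 genes. Stab1, Clec4g, Bmp2 and Wnt2 were lower in both metastasis livers than in both PMN livers, as were 21.5% of all genes, and Lyve1 and Gata4 were higher without overlap, as were 21.9%. Without metastasis liver 1, the log2 difference of Lyve1 was 0.67. Without metastasis liver 2, Lyve1 and Oit3 were among the members higher in the remaining metastasis liver than in the PMN livers. Clec4g and Wnt2 were among those lower.

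Compared per gene length in TPM (the deposited values, scaled by gene length and library total), Clec4g was the most abundant of the 10 genes in the sham livers with 25.9 ± 4.74 TPM (SD, n = 2, as for all TPM values). Mrc1 (8.36 ± 0.112) and Oit3 (8.33 ± 0.197) came next and did not differ beyond their spread. Bmp2, Stab1, Stab2, Rspo3 and Gata4 lay between 5.18 and 4.04 TPM, and of the neighbors in this order only Stab2 and Rspo3 had livers that did not overlap. Lyve1 had 1.14 ± 0.459 and Wnt2 0.539 ± 0.0517 TPM. In the PMN livers Clec4g (59.6 ± 4.28) and Mrc1 (36.4 ± 8.19) again led, and Stab2 (11.8 ± 0.840) and Stab1 (11.7 ± 1.96) overlapped, as did Rspo3 and Gata4. In the metastasis livers Lyve1 stood first on average with 43.04 ± 46.3 TPM, a value that rested on metastasis liver 1 (75.8 TPM) and not on metastasis liver 2 (10.3 TPM). There, neighbors in the order overlapped except for Mrc1 above Oit3, Bmp2 above Gata4 and Rspo3 above Wnt2. Wnt2 was the lowest of the 10 in all 3 groups.

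To set the 10 genes beside endothelium in general, 18 pan-endothelial genes were examined in the same fit. With PMN, 7 of the 18 were called higher, namely Pecam1, Cdh5, Kdr, Tek, Tie1, Ptprb and Adgrl4. With metastasis, 4 were called higher, namely Pecam1, Cdh5, Erg and Egfl7, and none was called lower in either group. The list had a median log2 fold change of 1.20 with PMN and 0.97 with metastasis, close to the 1.28 and 0.96 of the 10 sinusoidal genes. Pecam1 (CD31), the junction protein used to isolate endothelial cells, was measured at 4.93 and 6.45 CPM in sham, 24.0 and 30.3 in PMN and 35.9 and 24.1 in metastasis livers. Its log2 rise was 2.25 with PMN (adjusted p = 0.013, edgeR) and 2.40 with metastasis (adjusted p = 0.00912, edgeR). The part of leukocytes and other cells outside the endothelium in the Pecam1 values was not tested. Cdh5 (VE-cadherin) rose by 2.03 and 2.41 (adjusted p = 0.0197 and 0.0111, edgeR). Other members of the list did not follow: Eng was at 0.28 and -0.10, and Cldn5 at -0.87 and 0.04, with no call. The summed level of the list was 142 CPM in each sham liver, against 287 and 315 with PMN and 345 and 235 with metastasis.

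**Figure D3:**
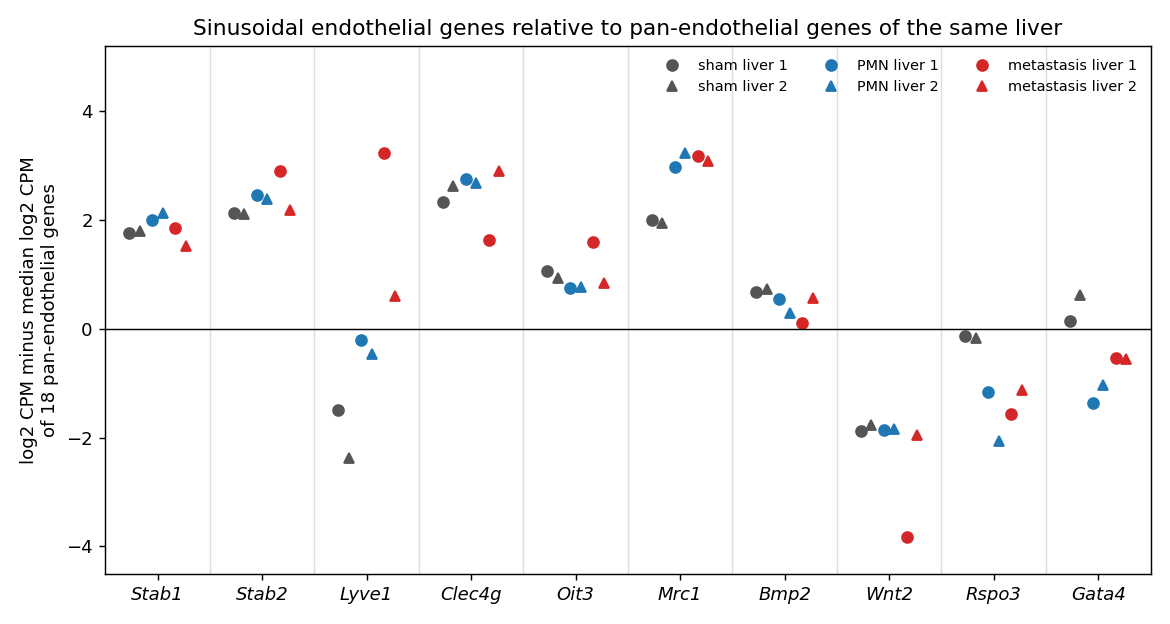
Log2 CPM of each gene minus the median log2 CPM of 18 pan-endothelial genes in the same liver, with 1 point per liver. Rspo3 and Gata4 are lower in all 4 tumor-bearing livers than in both sham livers, Mrc1 and Lyve1 are higher, 77.7% and 71.5% of all genes are lower on this scale in PMN and metastasis livers, and the zero line marks the pan-endothelial median.

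Each of the 10 genes was then expressed relative to the median of the pan-endothelial list in the same liver, as a description without a test. Gata4 was at 0.14 and 0.62 log2 units in sham, -1.36 and -1.04 in PMN and -0.54 and -0.55 in metastasis livers. Rspo3 was at -0.13 and -0.17 in sham, -1.16 and -2.07 in PMN and -1.56 and -1.12 in metastasis livers. Both were lower on this scale in all 4 tumor-bearing livers, by mean differences of -1.58 and -0.93 for Gata4 and -1.47 and -1.19 for Rspo3. The reference list itself was higher in these livers, so this held for most genes: 77.7% of all tested genes were lower without overlap with PMN and 71.5% with metastasis, with median differences of -1.16 and -1.05. Bmp2 was also lower without overlap in both groups, by -0.29 and -0.37. Mrc1 was higher relative to the list without overlap, by 1.13 and 1.16, and Lyve1 by 1.59 and 3.85, where 7.57% and 8.85% of all genes were higher without overlap. Against Pecam1 and Cdh5 alone, however, Mrc1 differed by 0.15 and -0.14. Stab1 and Stab2 differed from the list by 0.29 and 0.31 in the PMN livers but by -0.69 and -0.67 from Pecam1 and Cdh5, so the direction for the stabilins depended on which endothelial genes were the reference. Pecam1 and Cdh5 had the highest log2 fold changes of the list with PMN and were among the highest 3 with metastasis, which by itself lowers every value against them. Clec4g behaved in the same way, with 0.24 and -0.74 in the PMN livers. With metastasis, Stab2 differed from the list by 0.42 without overlap (-0.88 from Pecam1 and Cdh5), whereas Stab1 (-0.09), Clec4g (-0.22) and Oit3 (0.22) overlapped with sham. Wnt2 was lower without overlap with metastasis (-1.07) and overlapped with PMN (-0.02), and Oit3 was lower without overlap with PMN (-0.24).

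A further 12 sinusoidal genes were not among the 10. With PMN 6 were called higher, namely Gpr182, Dnase1l3, Maf, Tfec, Thbd and Adam23. With metastasis 5 were called higher, namely Gpr182, Flt4, Maf, Thbd and Adam23, and none was called lower in either group. Thbd, encoding the anticoagulant receptor thrombomodulin, was measured at 0.542 and 1.06 CPM in sham, 20.02 and 14.01 in PMN and 21.96 and 15.1 in metastasis livers (adjusted p = 0.00725 and 0.00579, edgeR). Adam23, a membrane protein of the ADAM family, rose by log2 fold changes of 2.61 and 2.71 (adjusted p = 0.00702 and 0.00578, edgeR). Maf, encoding a transcription factor of sinusoidal identity, rose by 1.18 and 1.48 (adjusted p = 0.0195 and 0.00918, edgeR). The part of macrophages in the Maf, Tfec and Thbd results was not tested. Ehd3, an endocytic recycling gene and the one with the highest mean CPM of the 12 over all livers (in TPM, Fcgr2b was higher), was measured at 57.0 and 51.4 CPM in sham, 99.2 and 105.6 in PMN and 13.97 and 31.9 in metastasis livers. Its metastasis livers were below and its PMN livers above the sham livers. Neither difference was called in edgeR (log2 0.92 and -1.24, adjusted p = 0.177 and 0.0853).

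Some genes of continuous, capillarized endothelium and of basement membrane were higher as well. Of 15 tested genes, 4 were called higher in the PMN livers (Vcam1, Ly6c1, Col4a1 and Col4a2), against 4.92% of all genes, and 11 were not called. In the metastasis livers 8 were called higher (the same genes and Emcn, Nid1, Apln and Esm1), against 6.78% of all genes. None was called lower, and the median log2 fold change was 1.25 and 3.01, the latter being the value of Cd34, which rested on metastasis liver 2. Vcam1, an adhesion molecule for leukocytes, was measured at 15.1 and 10.1 CPM in sham, 98.5 and 120.28 in PMN and 115.2 and 89.5 in metastasis livers (adjusted p = 0.00702 and 0.00579, edgeR). Col4a1, a chain of basement membrane collagen, rose by log2 fold changes of 1.55 and 2.39 (adjusted p = 0.0476 and 0.0151, edgeR). Nid1, a basement membrane linker, was at 9.81 and 9.28 CPM in sham but 140.3 and 49.02 CPM in metastasis livers (adjusted p = 0.0184, edgeR). Esm1 and Apln, both genes of sprouting tip cells, stayed at 4.10 CPM or less in every liver. Cd34 was at 1.23 and 0.815 CPM in sham and 2.11 and 2.07 CPM in PMN livers (log2 fold change 1.03, adjusted p = 0.434, edgeR). In the metastasis livers it was at 2.48 and 14.01 CPM (adjusted p = 0.0606, edgeR), with metastasis liver 2 far above metastasis liver 1. Cav1 (1.37 and 26.2 CPM) and Ly6a (0.233 and 9.52 CPM) were also far higher in metastasis liver 2 than in metastasis liver 1. The part of tumor cells, stromal cells and other cells in the values of this list was not tested. 

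**Figure D4:**
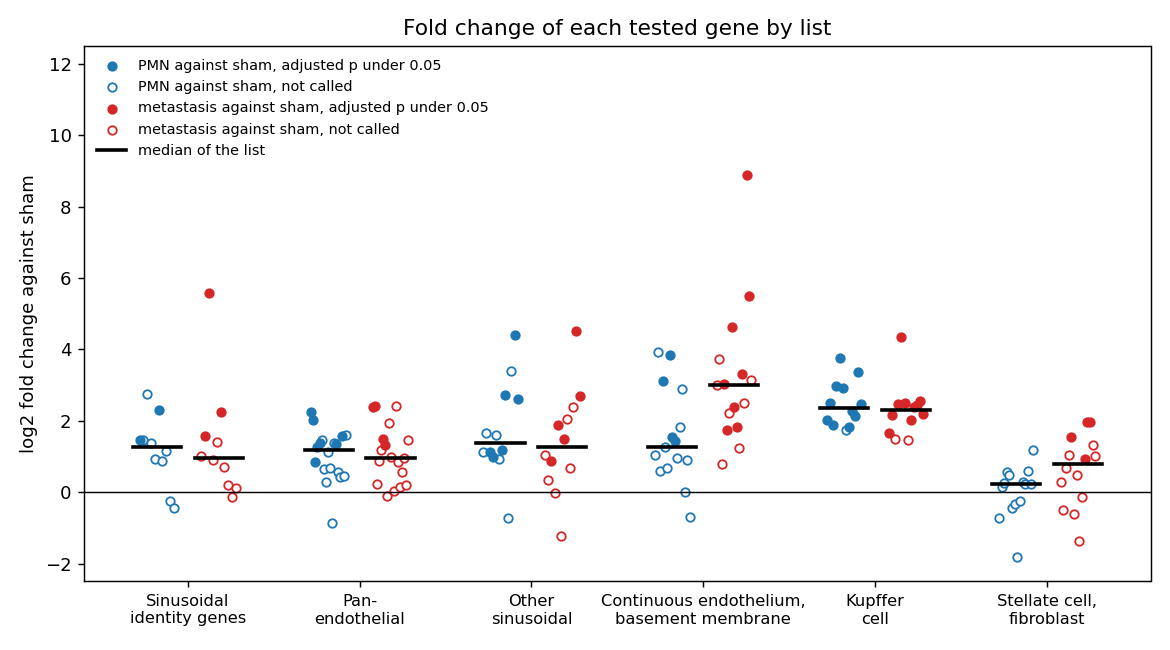
Log2 fold change against sham of every tested gene of 6 lists, with PMN in blue and metastasis in red, filled where the adjusted p is under 0.05 and with a bar at the list median. The medians of the sinusoidal and pan-endothelial genes lie close together, Kupffer cell genes lie higher, and fitted values of genes with almost no counts in sham livers, such as Apln at 8.88, depend on the prior count.

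On the receiving side of BMP2, no gene of the receptor complex or of the target list was called higher. Of 12 genes of the receptor complex and its SMAD effectors, none was called in the PMN livers (an unadjusted p under 0.05 marked Bmpr2, Tfr2 and Smad5 as higher, against 15.2% of all genes, and 0 genes as lower, and 7 of the 12 were higher and 2 lower without overlap, against 34.4% and 34% of all genes). With metastasis only Tmprss6, a protease that restrains the pathway, was called, and it was lower (log2 fold change -0.92, adjusted p = 0.0359, edgeR). There, Bmpr2, a type II receptor, had a fold of 2.00 that was not called in edgeR (adjusted p = 0.0538), and Smad1 was the other gene that was higher at an unadjusted p under 0.05. Under other settings with all livers, up to 3 of the 12 were called higher with PMN and up to 1 with metastasis. Of 10 BMP target genes, 0 were called higher, also at an unadjusted p under 0.05. At that threshold 2 were lower with PMN and 3 with metastasis, against 11.8% and 13% of all genes. Hamp2 was called lower in the PMN livers, and Hamp and Hamp2 in the metastasis livers. Hamp, which encodes the iron hormone hepcidin, was measured at 537 and 536 CPM in sham, 65.3 and 464 in PMN and 0.437 and 0.981 in metastasis livers (adjusted p = 0.463 and 0.00965, edgeR). The PMN livers thus differed widely from each other, whereas Bmp2 did not. Hamp and Hamp2 are near-identical copies, so the split of reads between them is uncertain. The general BMP targets Id1 and Id3 had log2 fold changes of 0.06 and 0.16 with PMN and 0.27 and 0.39 with metastasis, with no call. Smad9 was lower without overlap in both groups (log2 -1.75 and -2.21) and was not called (adjusted p = 0.154 and 0.0857, edgeR).

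On the receiving side of WNT2 and R-spondin 3, of 15 pericentral target genes 0 were called higher and 3 lower in each group. With PMN these were Rnf43, Notum and Cyp1a2, and in the metastasis livers Notum, Cyp2e1 and Cyp1a2. Notum, a secreted WNT inhibitor that is itself a WNT target, was measured at 38.0 and 36.1 CPM in sham, 15.4 and 12.3 in PMN and 17.6 and 14.5 in metastasis livers (adjusted p = 0.019 and 0.0223, edgeR). Glul, the glutamine synthetase of the cells next to the central vein, was at log2 fold changes of -0.17 and -0.12 (adjusted p = 0.632 and 0.719, edgeR). The median of the list was -0.86 in the PMN and -0.69 in the metastasis livers. Of 11 WNT and R-spondin receptor genes, Rnf43 and Fzd8 were called lower in the PMN livers and Fzd8 in the metastasis livers, and none was called higher.

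The genes whose profile over the 6 livers was most like that of each member were sought among 9275 other genes at a mean of 5 CPM or more, by the root mean square (RMS) difference of centered log2 CPM. Over 6 livers, such likeness is a description only. The nearest gene to Mrc1 was Pecam1 (RMS 0.14), and the pair nearest to Stab1 was Slc43a2 (0.10) and Ptprb (0.11), the latter encoding the endothelial phosphatase VE-PTP. Klf9 was close to Stab2 (0.12), and Tgfbr1 and Cdc25a were nearest to Oit3 (0.07 and 0.08). Camk1d and Skap2 were nearest to Clec4g (0.13 and 0.15), and Prcp and Vps8 to Bmp2 (0.06 and 0.07). Rgs1 and Btg2 were nearest to Lyve1, at a much larger distance (0.41 and 0.42). Rgs1 was at 77.05 CPM in metastasis liver 1 and 7.78 CPM in metastasis liver 2, and Btg2 at 699 and 103 CPM. Serpinf2 and Mbl1 were nearest to Wnt2 (0.15 and 0.17), Lsm10 and Washc1 to Rspo3 (0.04 and 0.09), and Spred2 and Miip to Gata4 (0.07 and 0.10). Among the 10 genes themselves, Stab2 was closest to Oit3 (0.23) and Stab1 to Stab2 (0.27).

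Reads from overlapping genes on the other strand may enter some of these counts, because the use of strand in counting is not given in the sources used here. In GENCODE M21, exons of Stab1 share 112 bases with Nt5dc2, of Stab2 141 bases with Gm16268, of Clec4g 146 bases with Gm16553 and of Rspo3 404 bases with Gm48159, all on the opposite strand. The other 6 members share no exon bases with an annotated gene. Limits of the calls are shared by all 10 genes: without either sham liver, edgeR called 0 of the 10 genes in either tumor-bearing group, and 0 of all tested genes. Without either PMN liver, 0 were called with PMN and 1 with metastasis. The number of members called also moved when metastasis liver 1 or 2 was left out. Each of these fits leaves 1 metastasis liver, and the calls over all genes moved as well.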

How the data were processed

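Whole livers of 6 mice were sequenced from poly(A)-selected RNA. The authors aligned reads to mm10 with HISAT2 2.1.0 and counted uniquely mapped reads on exons with featureCounts (Subread 2.0.6). The annotation and strand setting are not given in the sources used here. The deposited count table holds raw counts, and the deposited TPM table the same data scaled by gene length and library total. Counts were tested with edgeR 4.0.16 in R 4.3.3 (quasi-likelihood test, TMM, filterByExpr with a count minimum of 10, 1 fit over 6 livers, Benjamini-Hochberg adjustment over 16370 genes). The standard error is the log2 fold change divided by the square root of the F statistic. The procedure was tested on simulated data. Log2 CPM used a prior count of 2. The members and the 18 gene lists were chosen with earlier results of these data known, and the lists were written by hand. The rule for names was all 10 members, called list genes with at most 4 examples and the most abundant gene of a list. It also held the 2 nearest genes to each member. Some list genes with no call or below 1 CPM were chosen after their values were seen, as were some examples. Such list genes were Eng, Cldn5, Cd34, Fcgr2b, Cav1, Ly6a, Prox1, Bmpr2, Tfr2, Smad1, Smad5, Smad9, Esm1, Apln, Pdpn, Mmrn1, Id1, Id3 and Glul. Alternatives were DESeq2 1.42.0, testing every gene, a minimum of 10 counts per liver, fits of each pair of groups alone, a block for the replicate number, scaling by library size, TMM that leaves out the 100 most abundant genes, limma 3.58.1 on log2(TPM + 1) and log2(TPM + 0.1), a robust spread, and each liver left out, where the remaining liver is assumed to vary like the other groups. Livers of 1 group differed by more than sampling noise. Coordinates are from RefSeq GRCm38.p6, the assembly that mm10 denotes. One result under this rule for names is not reported here.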

Additional observations from a re-analysis of the deposited data

How the results depend on the processing

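All 7 of Stab1, Stab2, Lyve1, Clec4g, Oit3, Mrc1 and Bmp2 kept a positive log2 fold change against sham in both groups under all 16 alternatives, whereas the number called depended on them. In the PMN livers 2 of the 10 genes were called higher, against 6 by DESeq2, 4 without a filter, 8 with only the groups compared and 1 on log2(TPM + 1), and 0 to 8 with a liver left out. In the metastasis livers 3 were called, against 6 by DESeq2 and 1 with only the groups compared, and 0 to 7 with a liver left out. For metastasis against PMN livers, DESeq2 called 1 higher, and leaving out a liver gave 0 to 2 higher and 0 to 2 lower. No alternative called a member lower than in sham livers. Over all genes, those called higher in the PMN livers numbered 806 and those in the metastasis livers 1110, against 1709 and 2065 by DESeq2 and 2548 and 276 with only the groups compared. Library size without TMM moved the median of all genes to -0.25 and -0.23, and gave 569 higher and 801 lower genes in the PMN livers against 806 and 389.

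The signs that turned were of small differences. For metastasis against sham, Wnt2 was at -0.041 by library size, -0.050 on log2(TPM + 1) and -0.22 on log2(TPM + 0.1), and between -0.80 (without metastasis liver 2) and 0.78 with a liver left out. Gata4 was at -0.16, -0.13 and -0.16 in the same order, and between -0.13 (without sham liver 1) and 0.43 with a liver left out, with -0.07 without metastasis liver 1. For PMN against sham, Rspo3 lay between -0.71 and 0.11 (without PMN liver 2). For metastasis against PMN, Stab2 was at -0.082 on log2(TPM + 1) and -0.095 on log2(TPM + 0.1). With a liver left out it lay between -0.53 (without metastasis liver 1) and 0.55, Oit3 between -0.19 (without metastasis liver 1) and 0.92, Rspo3 between -0.23 (without PMN liver 2) and 0.58, and Mrc1 between -0.30 and 0.15 (without metastasis liver 2), with 0.13 without PMN liver 2. The cause was not tested. The replicate numbers do not pair the mice: the correlation of deviations of same-numbered livers was -0.03 to 0.08, and with the replicate block 3 members were called higher in the PMN and 3 in the metastasis livers. Depth limits Wnt2, with 27 to 115 counts a liver.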

Other observations

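Hyaluronan, the cargo of stabilin-2 and LYVE1, has its own genes of synthesis and turnover, of which 7 were tested. Cemip2 and Cd44 were called higher in both groups, and none was called lower. Cd44, the hyaluronan receptor of leukocytes, was measured at 3.79 and 6.04 CPM in sham, 25.0 and 29.1 in PMN and 21.202 and 42.6 in metastasis livers (adjusted p = 0.0235 and 0.0153, edgeR). Cemip2, a cell surface hyaluronidase, rose by log2 fold changes of 1.92 and 1.51 (adjusted p = 0.0156 and 0.0216, edgeR). Ugdh, which makes a precursor of hyaluronan, was at -0.89 and -1.17 with no call. Among 14 endothelial transcription factor genes, of which Maf, Tfec, Meis2, Erg and Sox18 also belong to the sinusoidal or pan-endothelial lists, Maf and Tfec were called higher in the PMN livers and Klf2, Erg, Fli1 and Maf in the metastasis livers, and none was called lower. Klf2, which responds to shear stress, was at 5.27 and 3.51 CPM in sham but 21.03 and 9.81 CPM in metastasis livers (adjusted p = 0.0482, edgeR).

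Of 9 further angiocrine ligands, Hgf was called higher in both groups, Dkk3 in the metastasis livers, and Cxcl12 lower in both. Cxcl12, the chemokine that retains leukocytes, was measured at 321 and 354 CPM in sham, 123 and 150 in PMN and 88.9 and 141 in metastasis livers (adjusted p = 0.0436 and 0.0241, edgeR). Hgf, a hepatocyte growth factor, rose by log2 fold changes of 2.55 and 1.82 (adjusted p = 0.00722 and 0.0122, edgeR). Of the marker lists of other cells, all 12 neutrophil genes and 5 of 10 monocyte and macrophage genes were called higher in each group. Of 9 hepatocyte genes only Serpina1a was called, higher in the metastasis livers, and of 5 cholangiocyte genes only Sox9. None of 10 T, NK and B cell genes was called by edgeR in either group, with 0 higher and 2 lower in the PMN livers and 2 higher and 0 lower in the metastasis livers at an unadjusted p under 0.05.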
